A study of Mus musculus with 17 samples.

Results

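The genes that present antigen on major histocompatibility complex (MHC) class II molecules were followed through 17 RNA sequencing libraries of mouse bone marrow-derived macrophages. They are 7 named genes, taken by symbol from the 37620 genes of the deposited table: H2-Aa, H2-Ab1, H2-Eb1, Cd74, Ciita, H2-DMa and H2-DMb1. All 7 were found. The 17 libraries fall into 4 groups: 5 from Smad3 wild-type cells without transforming growth factor beta 1 (TGF-β1), called wild-type control, 4 from wild-type cells with TGF-β1, 5 from cells labelled Smad3 knockout without TGF-β1, and 3 from cells labelled knockout with TGF-β1. Every label gives the strain C57BL/6J. Bone marrow was grown for 7 days in macrophage colony-stimulating factor at 50 ng/ml, and TGF-β1 was given at 5 ng/ml for 5 days; the labels tie no library to an animal, a culture or a sort fraction, and whether a library was made from 1 cell or from many is unclear from them. Values are TPM, a transcript abundance corrected for length and scaled to the same total in every library, from which sequencing depth cannot be read, so depth is unknown. In libraries of many cells, fewer cells that express a gene and less RNA per cell cannot be told apart.

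Class II molecules are pairs of an alpha and a beta chain that show peptides from engulfed material to CD4 T cells. H2-Aa and H2-Ab1 encode the chains of I-A, and H2-Eb1 encodes the beta chain of I-E, whose alpha chain is not made in C57BL/6 mice. Cd74 is the invariant chain, which escorts new class II molecules to the endosome; there H2-DM, a pair made from H2-DMa with H2-DMb1 or H2-DMb2, helps to exchange the last piece of the invariant chain for a peptide. Ciita is the coactivator that switches these genes on. It does not bind DNA itself but is held at their promoters by factors bound to the X, X2 and Y boxes, namely RFX, CREB-type factors and NF-Y. Macrophages grown in macrophage colony-stimulating factor are known to carry little class II until interferon gamma induces Ciita, and TGF-β is known to lower that induction.

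The promoters are shown because H2-Aa and the H2-DM beta genes, which behaved differently as described below, hold related promoter elements. H2-Eb1 is shown beside them, and did not pass 8.66 TPM in any library. The sequences are those of RefSeq on GRCm38.p6, which is not the build of the deposited table, from 130 to 21 bases before the annotated start and on the strand of the gene. Capitals mark matches to an X-type motif (AAC, any 3 bases, then TGANG), a cyclic AMP response element (TGACGTCA, which corresponds to the X2 position) or a Y motif (TGATTGG). The letters were chosen after these promoters had been looked at.
H2-Aa, chr17:34287844-34287953, minus strand: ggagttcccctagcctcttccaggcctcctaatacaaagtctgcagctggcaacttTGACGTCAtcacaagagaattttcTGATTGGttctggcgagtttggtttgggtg
H2-Eb1, chr17:34305737-34305846, plus strand: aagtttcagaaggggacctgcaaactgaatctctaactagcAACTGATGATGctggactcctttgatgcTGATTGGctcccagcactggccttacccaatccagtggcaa
H2-DMb1, chr17:34153061-34153170, plus strand: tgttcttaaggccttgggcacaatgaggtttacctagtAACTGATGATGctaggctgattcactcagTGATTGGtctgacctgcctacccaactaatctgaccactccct
H2-DMb2, chr17:34145119-34145228, plus strand: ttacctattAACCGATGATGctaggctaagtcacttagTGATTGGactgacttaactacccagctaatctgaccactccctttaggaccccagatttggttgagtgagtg
In each of the 4 sequences an X-type motif or the cyclic AMP response element is followed by a Y motif on the same strand. The upstream element is the response element in H2-Aa and the X-type motif in the others. Between it and the Y motif lie 16 bases in H2-Aa, 17 in H2-Eb1, and 18 in both H2-DMb1 and H2-DMb2. Over 32851 promoters of 300 bases, both strands searched, 2.88% held the X-type motif, 1.79% the cyclic AMP response element and 7.82% the Y motif; the first 2 patterns can overlap each other. An X-type motif or response element followed by a Y motif within 50 bases on the same strand was held by 18 promoters (0.0548%), among them these 4 and that of H2-Ob, which encodes the beta chain of the H2-DM modulator H2-O. Neither of the 2 H2-DMa promoters in the table held any of the 3 patterns, which says only that these letters are not in those windows. The promoters of H2-Ab1, Cd74 and Ciita are not shown.

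**Figure D1:**
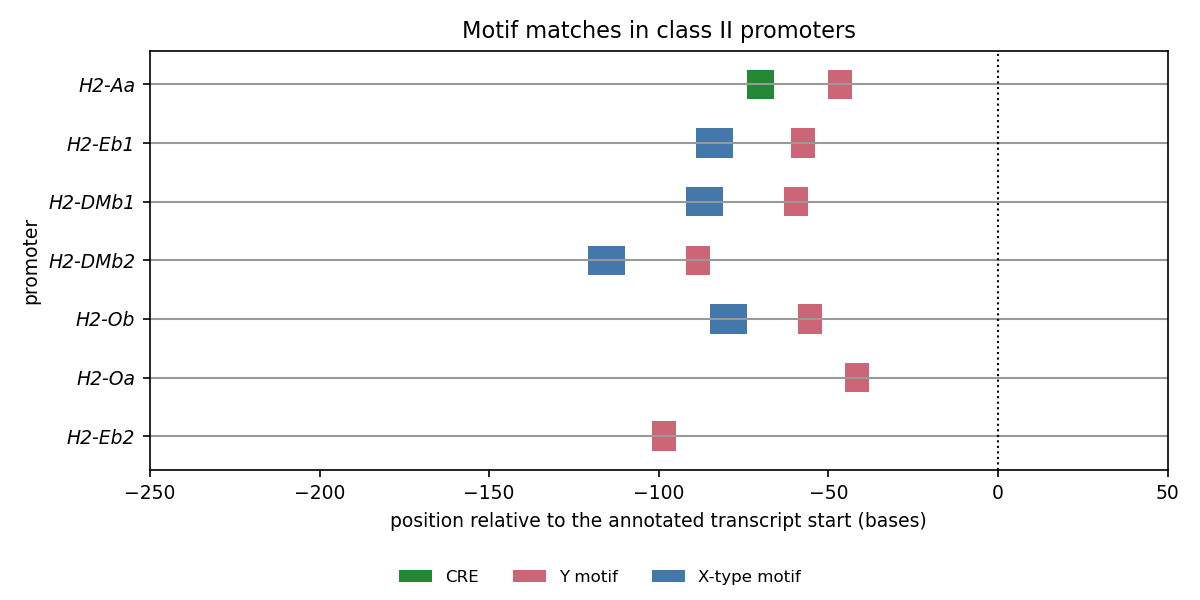
Positions of the X-type motif (blue), cyclic AMP response element (green) and Y motif (red) in 7 class II promoters with at least 1 match; the x axis is the distance in bases from the annotated transcript start, at 0. The first 5 promoters hold an X-type motif or response element upstream of a Y motif, while H2-Oa and H2-Eb2 hold the Y motif only.

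Library by library, the genes split into 2 behaviours. Cd74, H2-Aa and H2-Ab1 were abundant in 1 library of 17, the third wild-type control, and were at 15.4 TPM or less, mostly 0, in the others. Ciita was at 20.9 TPM in the same library, a level below that of most detected genes there, and at 0.03 TPM or less elsewhere. H2-DMa and H2-DMb1 were present in many libraries where Ciita, H2-Aa and H2-Ab1 were listed at 0. None of the 7 genes differed between groups past the adjusted test.

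The Smad3 transcript did not follow the genotype labels. It reached 1 TPM in 2 of 9 wild-type libraries (highest 15.4 TPM) and in 3 of 8 libraries labelled knockout (highest 22.3 TPM). Most libraries of either label were under 1 TPM, so the transcript cannot check the genotype in either direction. The knockout is therefore named here as a label only. A library held 7269 to 10307 genes at 1 TPM or more, and Pearson's r of log2(TPM + 1) between pairs of libraries ran from 0.611 to 0.813. The share of moderately expressed genes (mean of 10 to 50 TPM over the rest of the group) listed at 0 had a median of 8.78%, and 6 libraries were over 10%, the third wild-type control among them at 11.8%. None of 20 genes that every cell uses was listed at 0 in any library. The 10 macrophage markers summed to between 9618 and 44563 TPM over the libraries, of which Lyz2 gave 4975 and 39900 TPM at these ends. Csf1r was at 177 TPM or more in every library. Some of the markers were not present throughout, since Mertk had a median of 0.02 TPM and Fcgr1 was as low as 0.04 TPM.

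Ciita, the coactivator, was listed at 0, 0, 20.9, 0 and 0 TPM in wild-type control libraries 1 to 5. It was listed at 0 in all 7 TGF-β1 libraries and in 4 of the 5 knockout controls, the other one having 0.03 TPM. A single library therefore held all of the transcript above 1 TPM.

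Cd74, the invariant chain, was at 0, 0, 1181, 0 and 0 TPM in wild-type controls 1 to 5, at 0, 0, 0 and 8.49 TPM in wild-type TGF-β1 libraries 1 to 4, at 0, 2.76, 15.4, 0.12 and 0.02 TPM in knockout controls 1 to 5, and at 0 in the 3 knockout TGF-β1 libraries. H2-Aa, the I-A alpha chain, was at 0, 0, 544, 0 and 0 TPM in wild-type controls, at 0 in all 7 TGF-β1 libraries, and at 7.63, 0, 0.12, 0.07 and 0 TPM in knockout controls. H2-Ab1, the I-A beta chain, was at 0, 0, 382, 0 and 0 TPM in wild-type controls, at 0 in all 7 TGF-β1 libraries, and at 0.14, 0, 0.09, 0.45 and 0 TPM in knockout controls. In each of these genes the third wild-type control stood far above every other library, and the rest of its own group was listed at 0.

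H2-Eb1, the I-E beta chain, was at 2.42 TPM in the third wild-type control and at 0 in the other 4, at 8.66 TPM in knockout control 1 and at 0 in the other 4, and at 0 in all 7 TGF-β1 libraries. It was the one gene of the 5 whose highest library was not the third wild-type control. H2-Ea-ps, the I-E alpha locus that the C57BL/6 haplotype does not use, was listed at 0 in all 17 libraries.

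Where the low values lay, the genes did not go together. Of the 5 genes H2-Aa, H2-Ab1, H2-Eb1, Cd74 and Ciita, the third wild-type control had all 5 at 1 TPM or more. Knockout control 1 had H2-Aa and H2-Eb1 but listed Cd74 at 0, and knockout controls 2 and 3 and wild-type TGF-β1 library 4 had Cd74 alone. In 10 of 17 libraries all 5 genes were listed at 0. At least 1 of the 5 reached 1 TPM in 4 of 10 control libraries and in 1 of 7 TGF-β1 libraries.

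**Figure D2:**
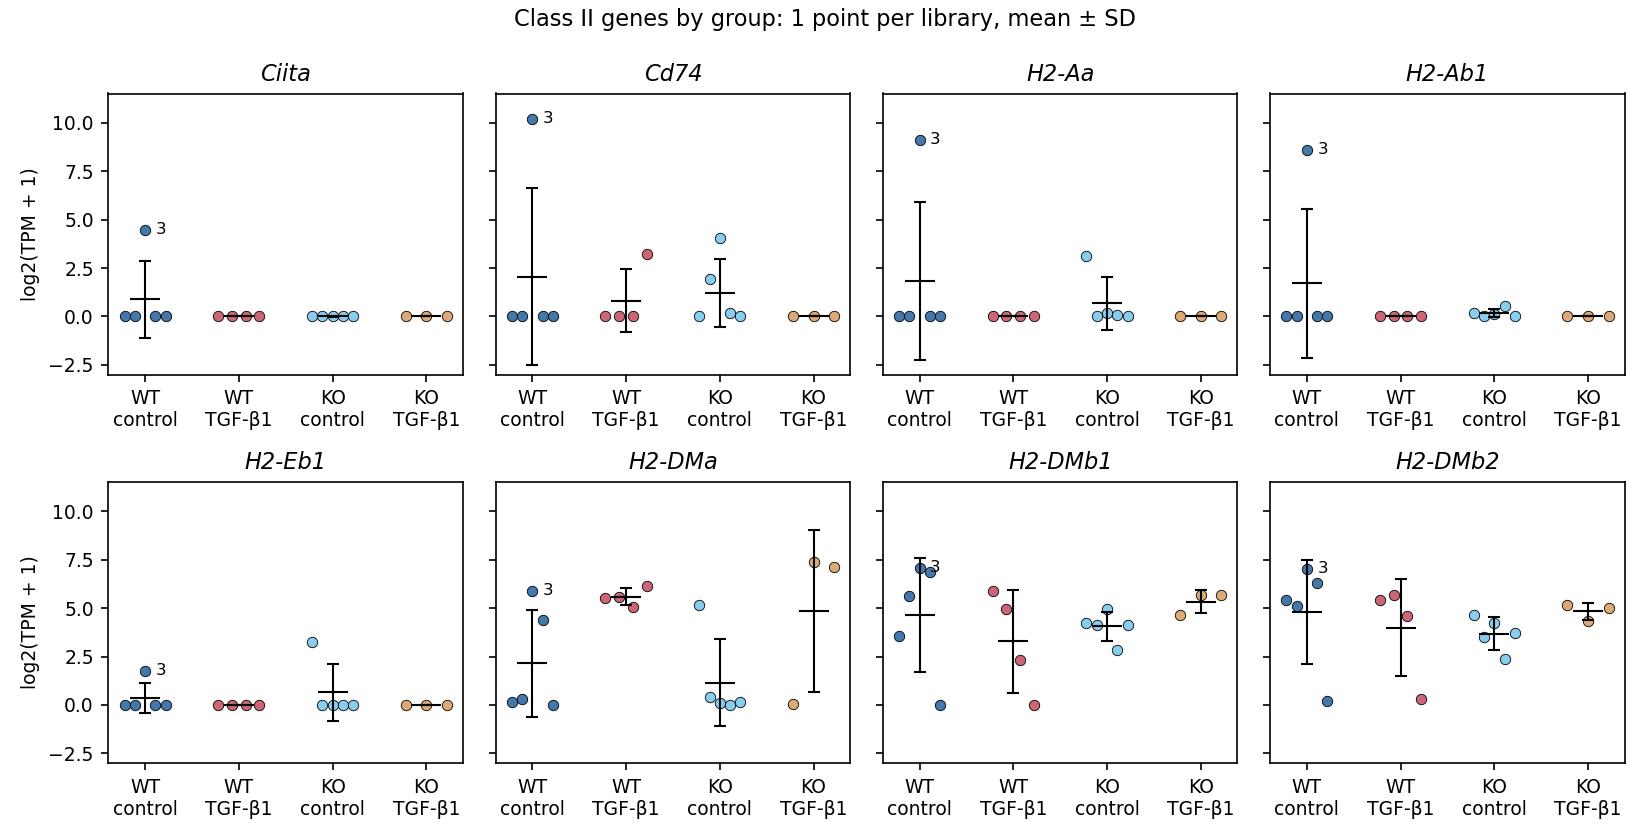
Level of each class II gene as log2(TPM + 1), 1 point per library in the 4 groups (WT wild type, KO labelled knockout), with the mean and SD as bars; the third wild-type control is marked 3, and H2-DMb2 is added beside its neighbour H2-DMb1. In Ciita, Cd74, H2-Aa and H2-Ab1 that library lies far above all others, while the H2-DM genes are spread over all groups.

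Within the third wild-type control, the genes stood in a graded order. TPM corrects for length, so genes can be compared: H2-Aa was at 46.1% of the TPM of Cd74, H2-Ab1 at 32.3%, H2-DMb1 at 11.3%, H2-DMa at 4.88%, Ciita at 1.77% and H2-Eb1 at 0.205%. Cd74 ranked 91st by TPM among the 8059 genes at 1 TPM or more in that library, H2-Aa ranked 266th and H2-Ab1 390th. Over the highest of the other 16 libraries, Cd74 was 76.7 times higher, H2-Aa 71.3 times and H2-Ab1 849 times. The library is set apart here after its values were seen, so no test is attached to it.

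Transcripts found in 1 library only were common in the table, and transcripts this abundant were not. Of 15113 genes that reached 1 TPM anywhere, 1963 (12.99%) did so in 1 library only, H2-Ab1 and Ciita among them. A stricter description, chosen after the values were seen, asked for 100 TPM or more and over 20 times the highest other library. Over all 17 libraries 12 genes met it, at most 4 in a library with a median of 0, and the third wild-type control held exactly 3: Cd74, H2-Aa and H2-Ab1. At 20 TPM or more, 177 genes met the same 20-fold rule, between 2 and 23 in a library; the third wild-type control had 11, of which 4 were Cd74, H2-Aa, H2-Ab1 and Ciita.

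**Figure D3:**
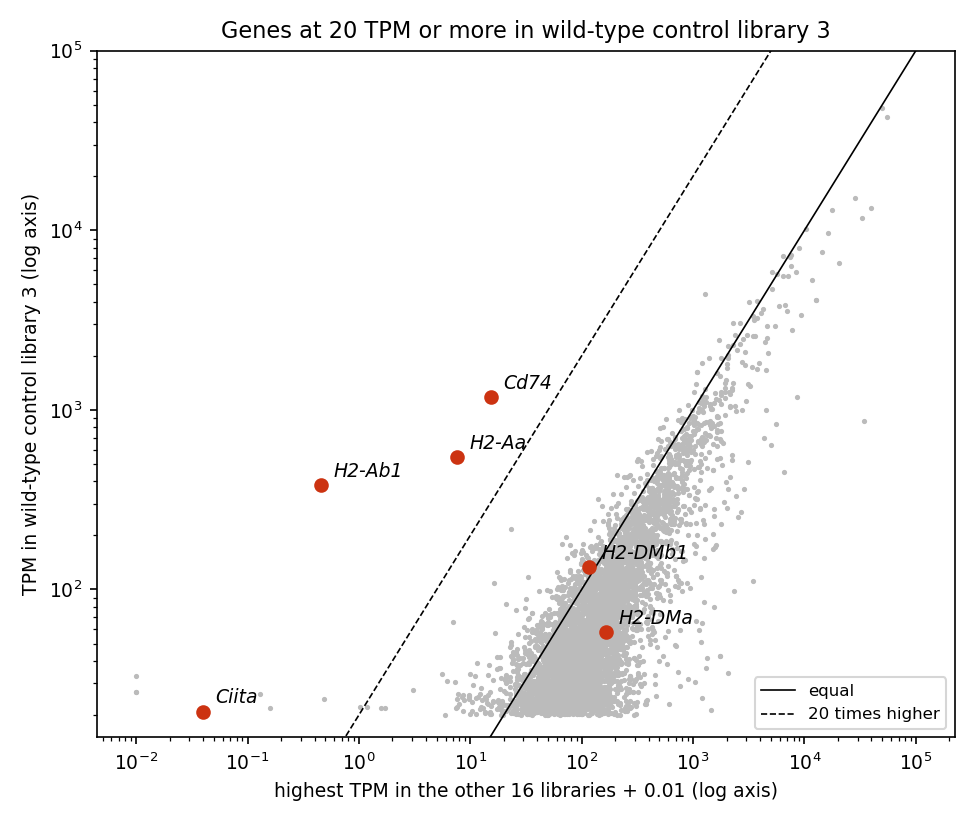
TPM in the third wild-type control against the highest TPM in the other 16 libraries plus 0.01, both on log axes, for each gene at 20 TPM or more in that library; red points are class II genes and the dashed line marks a 20-fold excess. Cd74, H2-Aa, H2-Ab1 and Ciita lie beyond the dashed line, with Cd74, H2-Aa and H2-Ab1 alone beyond it at 100 TPM or more, whereas H2-DMa and H2-DMb1 lie near the line of equality.

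Markers of other antigen-presenting cells were compared in that library, since dendritic cells and B cells carry class II without induction. Of 12 dendritic cell markers none reached 1 TPM there, and their sum was 0.03 TPM against 0.03 to 20.2 TPM over the 17 libraries. Flt3, Zbtb46, Cd209a, Clec9a and Ccr7 were listed at 0 there. The last 3 were at 0 in all 17 libraries, and Flt3 and Zbtb46 did not pass 0.39 and 0.14 TPM in any. Of 8 B cell markers 1 reached 1 TPM there, the adaptor gene Blnk at 127 TPM, which had a median of 102 TPM over all libraries. The B cell genes Cd79a and Ms4a1 were listed at 0 in all 17 libraries. None of 8 T and NK cell markers reached 1 TPM, and 9 of 10 macrophage markers did, with a sum of 20499 TPM. The sum over markers of cycling cells was lowest of all libraries there, at 631 TPM against up to 5854 TPM elsewhere. Not every marker was lowest, since Pcna and Tyms each ranked 10 of 17. The part of these markers in the class II values was not tested.

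Of the known route from interferon gamma to Ciita, the receptor genes and Irf1 lay within the range of the other libraries. Ifng itself was listed at 0 in all 17 libraries. The receptor genes Ifngr1 and Ifngr2 were at 107 and 121 TPM, the 8th and 14th highest of 17. Irf1, which acts at the Ciita promoter, was at 8.84 TPM and ranked 11th. Among genes of the factors that hold Ciita at promoters, Nfyc was highest of all libraries there at 107 TPM, Creb1 the second at 31.6 TPM and Rfxank was the third at 18.98 TPM, while Rfx5 and Rfxap, which encode the other RFX subunits, were listed at 0. The genes of the other NF-Y subunits were low there, Nfya at 0.73 TPM and Nfyb at 0.88 TPM, each ranked 14 of 17. Rfx5 did not pass 7.62 TPM in any library.

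The class I genes H2-K1, H2-D1 and B2m, of the other arm of presentation, were high in every library. H2-K1 lay between 612 and 2304 TPM and H2-D1 between 2865 and 7563 TPM over the 17 libraries, and B2m, the class I light chain, between 2774 and 6706 TPM. In the third wild-type control H2-K1 ranked 2 of 17 and H2-D1 ranked 3, within the range of the other libraries, while B2m ranked 13. The other class I presentation genes ranked from 2 (Pdia3) to 15 (Tapbp) there. The protease Ctss, which trims the invariant chain, was at 2794 TPM there, 15th of 17, and the lysosomal thiol reductase Ifi30 was at 248 TPM, 14th of 17. Other processing genes ranked higher there: Canx and Hspa5 each ranked 2, Ctsb 3, Sppl2a 4 and Ctsd 6. Lgmn ranked 13 and Ctsl 14. Over the 17 libraries Ctss lay between 2552 and 7683 TPM and Ifi30 between 103 and 762 TPM, the libraries with Cd74 and the I-A genes at 0 included.

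**Figure D4:**
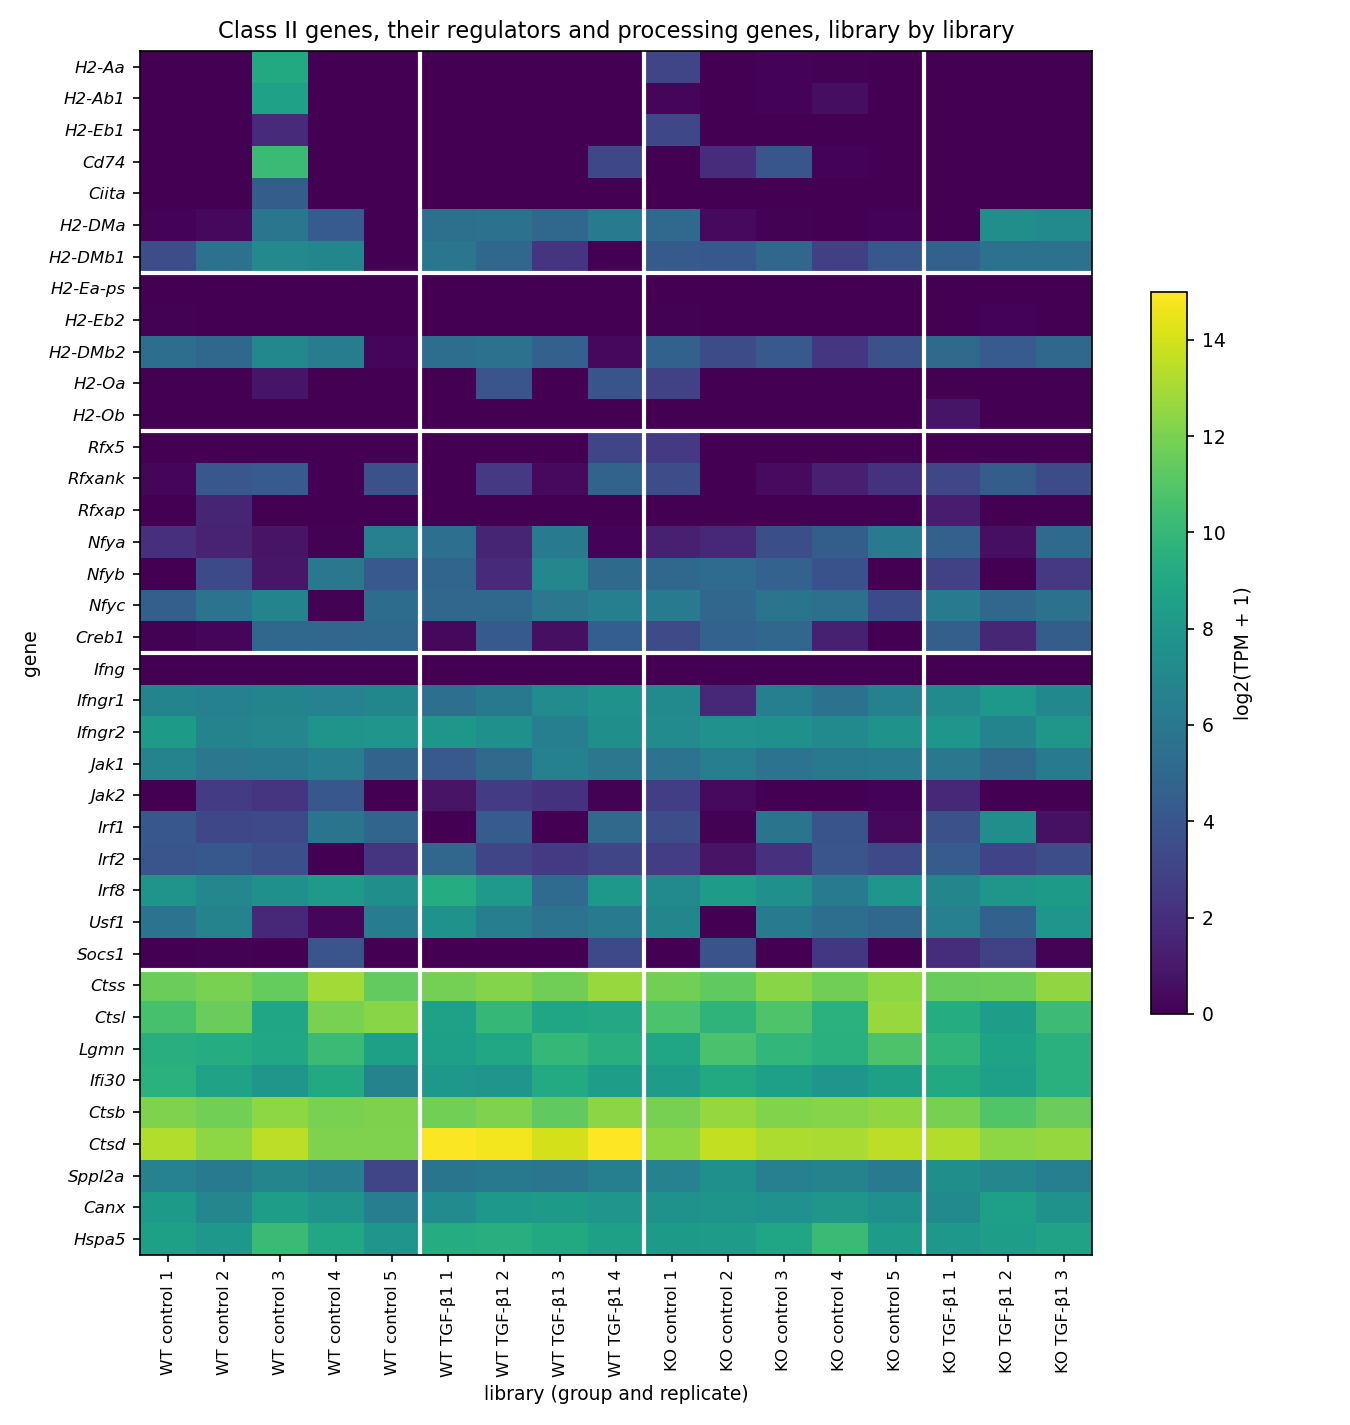
Level as log2(TPM + 1), by colour, of the 7 class II genes, other class II genes, promoter factors, most genes from interferon gamma to Ciita and processing genes (rows, blocks divided by white lines) in the 17 libraries (columns, grouped by genotype label and treatment). The third wild-type control is bright for H2-Aa, H2-Ab1 and Cd74, and Ctss, Ctsb and Ctsd in the lowest block are bright in every library.

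H2-DMa, the H2-DM alpha chain, was at 0.11, 0.26, 57.7, 19.9 and 0 TPM in wild-type controls 1 to 5 and at 45.3, 47.0, 32.4 and 69.4 TPM in wild-type TGF-β1 libraries 1 to 4. It was at 34.4, 0.32, 0.06, 0 and 0.10 TPM in knockout controls 1 to 5 and at 0.03, 167 and 139 TPM in knockout TGF-β1 libraries 1 to 3. The gene was either at 19 TPM or more or under 1 TPM, limits set from these values, so no test is attached to them. It was at 19 TPM or more in 6 of 7 TGF-β1 libraries and in 3 of 10 controls. In neither genotype were the groups separate, because the highest wild-type control lay inside the TGF-β1 range and 1 knockout TGF-β1 library was near 0. Group means were 15.6 ± 25.0 TPM (SD, n = 5) in wild-type control, 48.5 ± 15.4 (n = 4) in wild-type TGF-β1, 6.98 ± 15.3 (n = 5) in knockout control and 102 ± 89.2 (n = 3) in knockout TGF-β1. Ordered by mean log2(TPM + 1), wild-type TGF-β1 (5.58) came before knockout TGF-β1 (4.85), wild-type control (2.15) and knockout control (1.15), and libraries of neighbouring groups in this order overlapped.

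H2-DMb1, an H2-DM beta chain, was at 10.7, 47.5, 133, 116 and 0 TPM in wild-type controls and at 58.8, 29.4, 3.97 and 0 TPM in wild-type TGF-β1 libraries. It was at 18.03, 16.6, 29.6, 6.16 and 16.2 TPM in knockout controls and at 24.0, 50.2 and 50.0 TPM in knockout TGF-β1 libraries. Group means were 61.5 ± 60.7 TPM (SD, n = 5), 23.0 ± 27.2 (n = 4), 17.3 ± 8.33 (n = 5) and 41.4 ± 15.1 (n = 3) in the same order. All groups overlapped their neighbours in the order of mean log2(TPM + 1), which ran from knockout TGF-β1 (5.33) through wild-type control (4.62) and knockout control (4.05) to wild-type TGF-β1 (3.29). It was at 1 TPM or more in 15 of 17 libraries, 14 of which listed Ciita at 0.03 TPM or less.

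H2-DMb2, the neighbouring beta gene, ran closely with H2-DMb1. The transcripts share sequence, 31.4% of the 31-base words of H2-DMb1 occurring in H2-DMb2, and RSEM divides shared reads by estimate, so the split between the 2 genes is uncertain. Over 17 libraries Pearson's r of their log2(TPM + 1) was 0.887 (permutation p = 3e-05, adjusted over 3 relations 9e-05) and Spearman's rho 0.705 (permutation p = 0.00205, adjusted 0.00615); on deviations from the group means r was 0.905. Without the 2 libraries farthest from the median of H2-DMb1, r was 0.689. H2-DMa did not follow the beta genes past the test: with H2-DMb1, r was 0.259 (permutation p = 0.316, adjusted 0.322) and rho 0.444 (permutation p = 0.0761, adjusted 0.114), and r was 0.07 without the 2 farthest libraries. With H2-DMb2, r was also 0.259 (permutation p = 0.322, adjusted 0.322) and rho 0.314 (permutation p = 0.218, adjusted 0.218), and r was 0.03 without the 2 farthest libraries. For H2-Aa, H2-Ab1 and Cd74 no correlation over libraries is given, because 1 library stands apart from the other 16.

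The sum of the beta genes, taken after the values were seen because of their shared sequence, was 0.16 to 262 TPM in wild-type control, 0.23 to 99.7 TPM in wild-type TGF-β1, 10.4 to 47.0 TPM in knockout control and 58.7 to 81.2 TPM in knockout TGF-β1. The 3 knockout TGF-β1 sums lay above all 5 knockout control sums, a separation that 4.89% of all tested genes, taken singly, showed in that comparison. Neither gene alone was separate there. H2-DMb1 reached 29.6 TPM in these controls and was as low as 23.98 TPM with TGF-β1. For H2-DMb2 these values were 23.94 and 18.9 TPM. H2-Oa, the alpha chain of the H2-DM modulator H2-O, was at 14.8 and 13.7 TPM in wild-type TGF-β1 libraries 2 and 4, at 6.78 TPM in knockout control 1, at 0.82 TPM in the third wild-type control and at 0 in the other 13. H2-Ob and H2-Eb2 did not pass 0.79 and 0.09 TPM in any library.

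The comparisons were fitted with limma on log2(TPM + 1) over the 12158 genes that reached 1 TPM in 3 libraries or more, with Benjamini-Hochberg adjustment over all of them, and a gene was called at an adjusted p under 0.05. Of the 7 genes, Cd74, H2-DMa and H2-DMb1 passed that filter, and H2-Aa, H2-Ab1, H2-Eb1 and Ciita did not. Because the labels give no separate cultures or animals, the p-values speak of the spread from library to library, which may be technical.

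For TGF-β1 against control in wild-type cells, limma called 22 of 12158 genes (0.181%) and 0 of the 3. H2-DMa was higher by 3.43 ± 1.57 on the log2 scale (SE, 95% interval 0.16 to 6.71), with an unadjusted p of 0.0409 and an adjusted p of 0.482. Cd74 was lower, at -1.23 ± 1.61 (adjusted p = 0.861), and without the third wild-type control the difference was 0.81 in the other direction. H2-DMb1 was at -1.33 ± 1.29 (adjusted p = 0.792), and without the same library at -0.72; without wild-type TGF-β1 library 4, where it was listed at 0, it was at -0.24, and without wild-type control 5, also at 0, at -2.49. The mean log2 difference of the genes outside the filter was -1.82 for H2-Aa, -1.72 for H2-Ab1, -0.35 for H2-Eb1 and -0.89 for Ciita, and each came from the third wild-type control alone, since the other 4 controls and all 4 treated libraries were listed at 0. The median over all tested genes was 0.09.

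For TGF-β1 against control in cells labelled knockout, limma called 1 of 12158 genes (0.00823%) and 0 of the 3. H2-DMa was higher by 3.70 ± 1.71 (95% interval 0.13 to 7.26), with an unadjusted p of 0.0427 and an adjusted p of 0.827. Cd74 was at -1.23 ± 1.75 (adjusted p = 0.983) and H2-DMb1 at 1.28 ± 1.40 (adjusted p = 0.968). The comparison of H2-DMa rests on 2 high libraries of 3: without knockout TGF-β1 library 1, at 0.03 TPM, its difference was 6.11, and without library 2 it was 2.43.

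Averaged over both labels, limma called 46 genes (0.378%) for TGF-β1 and 0 of the 3. H2-DMa had the smallest p of the 3 here: limma gave a difference of 3.57 ± 1.16 (95% interval 1.15 to 5.99), an unadjusted p of 0.00601 and an adjusted p of 0.227. It passed the adjusted test in 1 of 27 alternative settings, the fit without knockout TGF-β1 library 1, with a difference of 4.77 and an adjusted p of 0.0461 by limma. Markers of cycling cells moved with the same contrast, 10 of 10 positive with a median log2 difference of 2.24 and 0 called. Over all tested genes 54.0% were positive, with a median of 0.08. The summed TPM of the cycling markers was 631 to 3432 in control and 3077 to 5854 in TGF-β1 libraries. Their part in the H2-DMa difference was not tested. Cd74 was at -1.23 ± 1.19 (adjusted p = 0.785) and H2-DMb1 at -0.03 ± 0.95 (adjusted p = 0.995).

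The difference between the labels in their response to TGF-β1 was tested directly. limma called 0 of 12158 genes (0%), with 569 at an unadjusted p under 0.05, and 0 of the 3 at either level. The difference of the effects, knockout minus wild type, was 0.27 ± 2.32 for H2-DMa (95% interval -4.57 to 5.11, adjusted p = 0.998), 2.61 ± 1.90 for H2-DMb1 (-1.35 to 6.58, adjusted p = 0.997) and 0.00 ± 2.38 for Cd74 (-4.97 to 4.97, adjusted p = 1). These intervals are wide on both sides of 0 and leave large differences possible in each direction.

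Between genotype labels in control cells, limma called 18 genes (0.148%) and 0 of the 3, none of which had an unadjusted p under 0.05 or separate groups (1.06% of all tested genes did not overlap). Cd74 was at -0.81 ± 1.52 (adjusted p = 0.977), and without the third wild-type control at 1.23. H2-DMa was at -0.99 ± 1.48 (adjusted p = 0.976) and without that library at -0.06, and H2-DMb1 was at -0.57 ± 1.21 (adjusted p = 0.981) and without it at 0.05. The direction of Cd74 and H2-DMb1 between the labels thus turned with 1 library.

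With TGF-β1, 19 genes (0.156%) were called between the labels and 0 of the 3: Cd74 was at -0.81 ± 1.83, H2-DMa at -0.73 ± 1.79 and H2-DMb1 at 2.05 ± 1.46 (each with a limma adjusted p of 1, none with an unadjusted p under 0.05), and none had separate groups, which 5.49% of all tested genes had. Averaged over both treatments, 33 genes (0.271%) were called and 0 of the 3, with differences of -0.81 ± 1.19 for Cd74 (0.21 without the third wild-type control), -0.86 ± 1.16 for H2-DMa and 0.74 ± 0.95 for H2-DMb1. These comparisons share their libraries with those above and are no separate evidence.

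**Figure D5:**
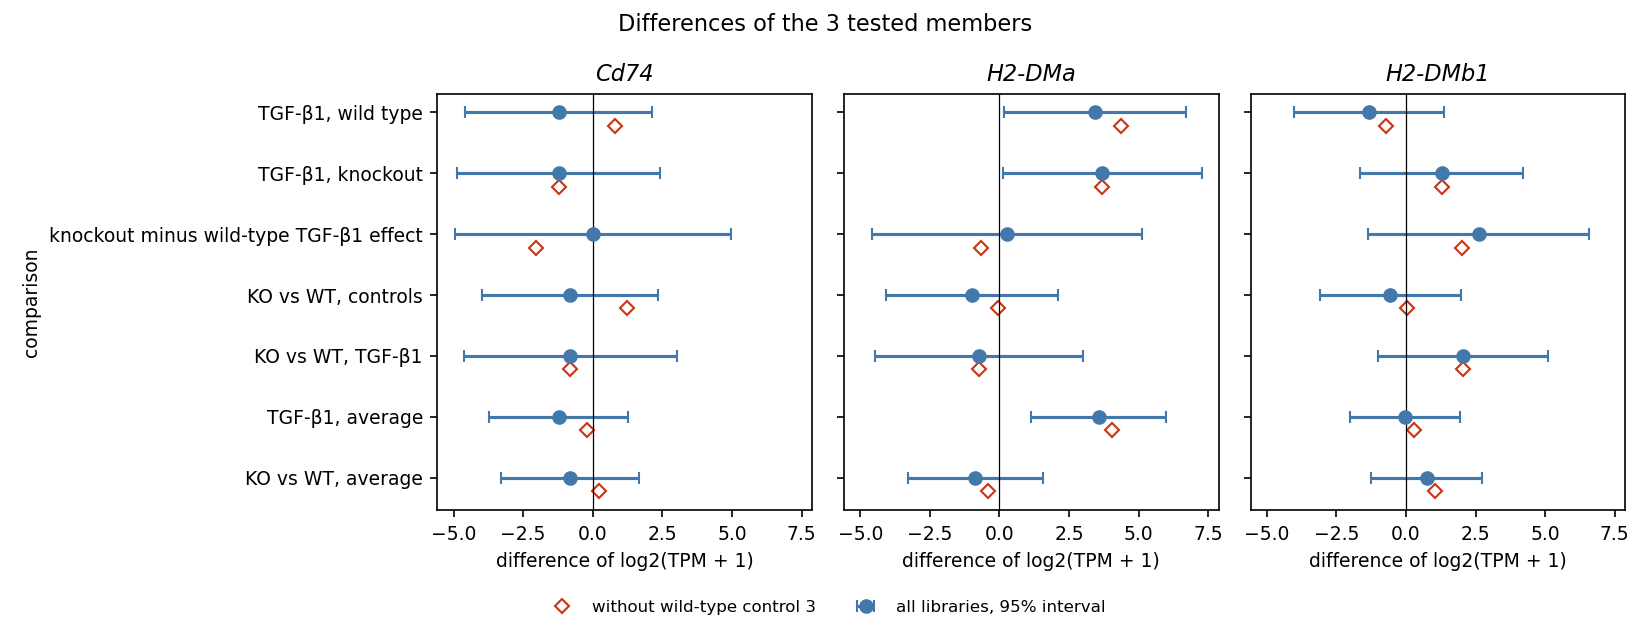
Differences of log2(TPM + 1) with limma's 95% interval (blue) for Cd74, H2-DMa and H2-DMb1 in 7 comparisons (rows; KO labelled knockout, WT wild type), and the same difference without the third wild-type control (red diamonds). The Cd74 diamonds lie on the other side of 0 from the full fit in wild-type TGF-β1, in the difference of the effects, in the control comparison of the labels and in the labels averaged, and the 3 H2-DMa intervals for TGF-β1 lie above 0 before adjustment.

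Around the 7 genes, few others of the pathway passed the test. For TGF-β1 in wild-type cells, 1 of 9 invariant chain and processing genes was called: Ctsd, the lysosomal protease cathepsin D, was at 9931, 5633, 11722, 4442 and 4365 TPM in controls and at 31342, 27631, 16485 and 32752 TPM with TGF-β1, without overlap (a separation that 2.79% of all tested genes showed), and its log2 difference was 1.98 ± 0.30 (limma adjusted p = 0.00371); the call was kept in 18 of 20 alternative settings, the adjusted p being 0.0758 with no filter and 0.0564 without the 6 libraries over 10%. With TGF-β1 it was also the one processing gene called between the labels, lower in knockout by 1.91 on the log2 scale, at -1.91 ± 0.34 (limma adjusted p = 0.0152), with knockout TGF-β1 libraries at 9714, 5591 and 6261 TPM. That second call was kept in 9 of 18 alternative settings, with limma adjusted p from 0.00798 to 0.122 over them, and was lost without knockout TGF-β1 library 2 (0.105) or 3 (0.122) and without wild-type TGF-β1 library 1 (0.0540), 2 (0.0635) or 4 (0.0662). For the difference of the TGF-β1 effects between the labels, none of the 9 processing genes was called (lowest limma adjusted p = 0.3). Ctsl, the protease cathepsin L, was at -1.98 ± 0.64 in the wild-type comparison (adjusted p = 0.272).

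None of the 8 tested genes of class II turnover and co-stimulation was called, 7 of them positive with a median of 1.03 for TGF-β1 in wild-type cells. Over all tested genes 53.8% were positive in that comparison, with a median of 0.09. Icosl, a ligand for the T cell receptor ICOS, was at 0.12 TPM or less in the 5 wild-type controls and at 12.8, 22.4, 15.2 and 16.8 TPM with TGF-β1. Its groups did not overlap, a separation that 2.79% of all tested genes showed in that comparison. Its log2 difference was 4.10 ± 0.90, with a limma adjusted p of 0.0694. In cells labelled knockout, Icosl was at 15.8, 0.04, 4.53, 0 and 1.26 TPM in controls. With TGF-β1 it was at 8.45, 4.32 and 21.96 TPM there, and these groups overlapped. March1, the ubiquitin ligase that marks class II and Cd86 for turnover, was at 0 TPM in 4 wild-type controls and 0.19 in library 3, and at 6.68, 3.24, 0 and 41.3 TPM with TGF-β1 (2.56 ± 1.03, adjusted p = 0.423). In cells labelled knockout it was at 0.02 TPM or less in 4 controls and 16.9 in library 5, and at 9.93, 35.5 and 19.8 TPM with TGF-β1 (3.50 ± 1.12, adjusted p = 0.628); 1 of 5 controls lay within the treated range. Cd86, a co-stimulatory ligand for CD28, was at 3.60 ± 1.12 in wild-type cells (adjusted p = 0.246).

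Of the 5 tested promoter factor genes (of 7), 0 were called and 3 were positive for TGF-β1 in wild-type cells, with a median of 1.11. In that comparison 53.8% of all tested genes were positive. Of the 10 tested genes from interferon gamma to Ciita (of 11), 0 were called, 4 positive and 6 negative, with a median of -0.07; Usf1, which encodes a factor of the Ciita promoter, had the largest difference at 2.36 ± 1.35 (adjusted p = 0.607). Of 11 class I presentation genes 0 were called, with a median of 0.51; H2-K1 was at -0.78 ± 0.26 (adjusted p = 0.286) and the peptide transporter gene Tap1 at 2.55 ± 1.26 (adjusted p = 0.513). In cells labelled knockout, none of the tested genes of these lists was called for TGF-β1.

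The genes whose pattern was most like the mean log2(TPM + 1) of H2-Aa, H2-Ab1, H2-Eb1 and Cd74, by Spearman's rho over 17 libraries among 7305 candidates with a mean of at least 10 TPM, were Uck2 (0.757), Rpl36 (0.746), Ints4 (0.726), Grhpr (0.725), Dppa3 (0.724), Ebpl (0.722), Rpl18 (0.716) and Samhd1 (0.715). Without the third wild-type control the 8 values lay between 0.651 and 0.713. The 10 libraries in which all 4 genes were listed at 0 are tied in this measure, so it reads the order of the few libraries with any transcript, and it is given as a description only.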

How the data were processed

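Libraries were prepared with SMART-seq2, a full-length cDNA method for little RNA, per the labels' protocols. The authors deposited TPM values per gene; FastQC, Trim Galore, RSEM and the build mm9 are named, without versions, per the submitters' processing notes. RSEM shares reads between similar transcripts by estimate. TPM keeps no depth, so no counting interval could be given. Symbols were found for 32897 of 37620 gene IDs (11438 of 12158 tested) in GENCODE vM21, used for names only; promoters came from RefSeq on GRCm38.p6.

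Groups were taken from the sample titles, since all labels carry an identical treatment text. From the deposited TPM, log2(TPM + 1) was computed, genes that reached TPM 1 in 3 or more of 17 libraries were kept, and 1 limma 3.58.1 model (R 4.3.3; trended eBayes) of the 4 groups gave 7 contrasts, with Benjamini-Hochberg adjustment over all genes tested. The script was tested on simulated data. Correlations used 100000 permutations (scipy 1.17.1). Same-numbered libraries did not deviate together (r from -0.076 to 0.02 over 15 pairs), so the replicate number was no block. Alternatives were pseudocounts 0.1 and 10, other filters and scalings, a covariate for detected genes per library, a replicate block, robust eBayes, fits without the 6 libraries with over 10% of moderately expressed genes at 0, fits over 2 groups alone and leaving out each library.

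The 7 genes and the gene lists were chosen with earlier results of these data known. The rule for names was: every one of the 7; other class II and Ciita route genes above 0; of the other lists, called genes and up to 4 of largest difference; and the 8 genes most like the I-A, I-E and Cd74 genes by Spearman's rho. Genes outside it are named as values beside a result. Of the lists, H2-Ea as a separate symbol and Psmb9 were not matched. Sort fractions were not analysed here, and some genes of the lists are counted but not reported by name.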

Additional observations from a re-analysis of the deposited data

Results flagged for a closer look

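Within groups of 4 or 5 libraries, a library was set apart by its gap in log2(TPM + 1) to the nearest other library. The gap, as a share of the group's range on that scale, had to pass Dixon's 95% limit. The limit is meant for values with a normal distribution, of which about 1 in 20 groups would pass, and these values are not of that kind. Here 10 of 17 combinations of gene and group that could be examined passed. A further 4 combinations with all values equal could not be examined. Where every other library of a group was at 0, the share was 1.0 whatever the highest value, as in Ciita below. Passing was then fixed in advance, so the flags are a description and no test.

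The third wild-type control stood apart from the other 4 in 5 genes, with a share of 1.0 for each of H2-Aa (544 TPM), H2-Ab1 (382 TPM), H2-Eb1 (2.42 TPM), Cd74 (1181 TPM) and Ciita (20.9 TPM). Knockout control 1 stood apart in H2-Aa (7.63 TPM, share 0.947), H2-Eb1 (8.66 TPM, share 1.0) and H2-DMa (34.4 TPM, share 0.922). Knockout control 3 stood apart in Ciita at 0.03 TPM (share 1.0). Wild-type TGF-β1 library 4 stood apart in Cd74 at 8.49 TPM (share 1.0).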

How the results depend on the processing

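Depth is unknown, groups hold 3 to 5 libraries, and no label ties libraries to animals, so a value of 0 may be a transcript that was missed. No tested class II gene was called in any comparison, and under the alternatives run 1 call appeared, H2-DMa for TGF-β1 averaged over labels without knockout TGF-β1 library 1 (4.77, adjusted p 0.0461); its direction for TGF-β1 was the same in every alternative, from 1.94 to 4.83 on the log2 scale. With no filter all 7 genes were fitted and 0 were called by limma in any comparison. The cause of the changes below was not tested.

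The number of genes called for TGF-β1 in wild-type cells (22) was 6 with no filter, 3 without the 6 libraries over 10% and 12 over the compared groups alone. For TGF-β1 in cells labelled knockout (1 gene) it was 0 with pseudocount 0.1, 4 with pseudocount 10, 5 with no filter, 0 with the filter at TPM 5, 6 with quantile normalization, 0 with the covariate, 2 with robust eBayes, 0 without the 6 libraries and 0 over the compared groups alone. The difference of the effects had 1 with no filter, against 0. Without the 6 libraries the count was 6 between labels in controls (18), 7 with TGF-β1 (19), 2 for TGF-β1 averaged (46) and 17 for the labels averaged (33). It was 5 between labels with TGF-β1 over those groups alone and 20 for TGF-β1 averaged with no filter.

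With the replicate block, counts were 11 for TGF-β1 in wild-type cells, 0 in cells labelled knockout, 10 between labels with TGF-β1 and 21 for TGF-β1 averaged; the block changed no call of a class II gene, and Ctsd between the labels with TGF-β1 had an adjusted p of 0.0846. The libraries share only a number.

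Leaving out 1 library at a time, counts ran from 14 to 34 for TGF-β1 in wild-type cells, 0 to 10 in cells labelled knockout, 0 to 1 for the difference of the effects, 16 to 23 between labels in controls, 12 to 20 with TGF-β1, 24 to 72 for TGF-β1 averaged and 26 to 37 for the labels averaged.

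Several differences, none of them called, changed sign. The difference of the effects for Cd74 was -1.60 with pseudocount 0.1, -0.038 with quantile normalization, -0.13 with the covariate and -0.16 with the replicate block, and -2.04 to 0.81 when libraries were left out. For H2-DMa it was -0.19 with pseudocount 0.1, -0.11 with the covariate and -3.27 without the 6 libraries, and -0.9999 to 2.67 when libraries were left out. Between labels in controls, H2-DMb1 was 0.040 with pseudocount 0.1 and H2-DMa 1.10 without the 6 libraries; leaving out libraries, Cd74 ran from -1.52 to 1.23 and H2-DMb1 from -1.72 to 0.047. Between labels with TGF-β1, H2-DMa was 0.17 with pseudocount 10 and -1.995 to 1.68 when libraries were left out. For TGF-β1 averaged, H2-DMb1 was 0.0086 with pseudocount 10, 0.039 with quantile normalization, 0.13 with the covariate and 0.081 without the 6 libraries, and -0.60 to 0.52 when libraries were left out. For TGF-β1 in wild-type cells, Cd74 ran from -2.04 to 0.81. For the labels averaged, Cd74 ran from -1.16 to 0.21 and H2-DMa from -1.50 to 0.34.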
